A study of Drosophila melanogaster with 3 samples.

Results

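The 10 genes described here make, mark and divide the neural precursors of the Drosophila melanogaster embryo. They were listed by name (ac, sc, l(1)sc, ase, SoxN, dpn, insc, mira, pros and brat), all 10 were found among 13945 protein-coding genes of the Ensembl annotation, and each was read over its span plus 10 kb on each side. The data were peaks from chromatin immunoprecipitation sequencing of CoRest, a corepressor scaffold protein, in 1 group of 3 biological replicates. The embryos were whole, of mixed sex and 0 to 24 hours old, from a transgenic line that stably expressed CoRest with a C-terminal eGFP, and the tag was precipitated with an anti-GFP antibody. There was no second genotype, treatment or age, so the question was where the tagged protein lay. The labels do not say which promoter drove the transgene.

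In the fly ectoderm, proneural basic helix-loop-helix (bHLH) factors give groups of cells the competence to form neural precursors, and Notch signalling then restricts that fate to fewer cells. The neuroblasts chosen in this way divide asymmetrically. Adaptor proteins orient the spindle and carry fate determinants to the daughter that stops self-renewal. CoRest binds a histone demethylase and a histone deacetylase and is recruited to DNA by other proteins. In peaks of whole embryos, binding in fewer cells and weaker binding in each cell cannot be told apart.

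The strongest summit in the windows of brat, pros, SoxN, mira and ase is shown with the 100 bases on each side, because the results below turn on where these summits lie. They are read 5′ to 3′ on the plus strand of dm6, from the RefSeq assembly, and capitals mark every match, on either strand, to the GAGA factor sequence GAGAG or to the BEAF-32 sequence CGATA, the only ones of 9 motifs searched that these windows held.
brat, intron, chr2L:19165065-19165265, pooled rank 356: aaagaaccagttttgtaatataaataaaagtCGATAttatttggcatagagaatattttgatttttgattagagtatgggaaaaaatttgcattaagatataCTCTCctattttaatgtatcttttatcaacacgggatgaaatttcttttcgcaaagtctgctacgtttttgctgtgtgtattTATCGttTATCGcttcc
pros window, upstream of mgr, chr3R:11409859-11410059, pooled rank 622: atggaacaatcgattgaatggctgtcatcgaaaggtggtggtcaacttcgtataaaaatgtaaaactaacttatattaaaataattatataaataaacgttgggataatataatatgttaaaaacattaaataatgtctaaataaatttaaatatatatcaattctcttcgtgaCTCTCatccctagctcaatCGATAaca
SoxN, upstream of its start site, chr2L:8825299-8825499, pooled rank 3401: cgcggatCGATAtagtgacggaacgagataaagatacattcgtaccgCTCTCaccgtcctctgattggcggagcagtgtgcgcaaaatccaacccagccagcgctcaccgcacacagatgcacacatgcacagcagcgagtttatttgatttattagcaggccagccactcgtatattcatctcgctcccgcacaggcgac
mira, at its start site, chr3R:19935099-19935299, pooled rank 6521: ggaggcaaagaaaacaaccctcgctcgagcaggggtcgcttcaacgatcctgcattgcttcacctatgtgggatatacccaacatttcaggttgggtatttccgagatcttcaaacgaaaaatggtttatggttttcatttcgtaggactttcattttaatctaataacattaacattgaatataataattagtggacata
ase, upstream flank, chrX:457916-458116, pooled rank 6835: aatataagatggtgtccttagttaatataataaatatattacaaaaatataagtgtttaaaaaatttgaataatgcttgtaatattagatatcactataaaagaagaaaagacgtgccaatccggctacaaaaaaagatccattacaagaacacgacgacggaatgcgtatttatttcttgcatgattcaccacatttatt
The brat window held 3 matches to CGATA and 1 to GAGAG, and the windows of pros and SoxN held 1 of each. The windows of mira and ase held none of the 9 motifs. GC content ran from 26.4% in the pros window and 27.4% in that of ase to 53.2% in that of SoxN.

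Thresholded CoRest summits were most numerous in the window of brat, with 11, of which 3 were nearest to a brat start site and 8 to other genes. They were present at the start sites of brat, SoxN, pros and mira, and absent from the windows of the proneural genes ac, sc and l(1)sc. Those at mira were found in replicate 1 only. That at brat also lay near a start site of Polr1D, and those at pros lay at a start site inside the gene. Ranks are by the authors' peak signal, with 1 as the strongest. The thresholded list, which the authors cut by a reproducibility threshold, held 8721 peaks, and these were the 8721 strongest of the 30000 in the pooled list. Membership thus followed pooled rank. Of its summits, 134 had a summit within 100 bp in only 1 replicate list and 6 in none. A summit within 500 bp of a start site, here named a promoter summit, was present at 4 of the 10 genes (40%), against 35.4% of all protein-coding genes. Among the 8721 strongest peaks of each replicate the count was 5 in replicate 1, 3 in replicate 2 and 2 in replicate 3, against 36.2%, 36.6% and 33.6% of all genes. The mean count was 3.33 ± 1.53 (SD, n = 3). A summit anywhere in the window was present at 7 of the 10 genes (replicates 6.33 ± 0.577, SD, n = 3), against 78.7% of all genes. Both shares lay near those of all genes. No test was run on these counts, because the genes were chosen by name with results of these data known and there was no second group.

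**Figure D1:**
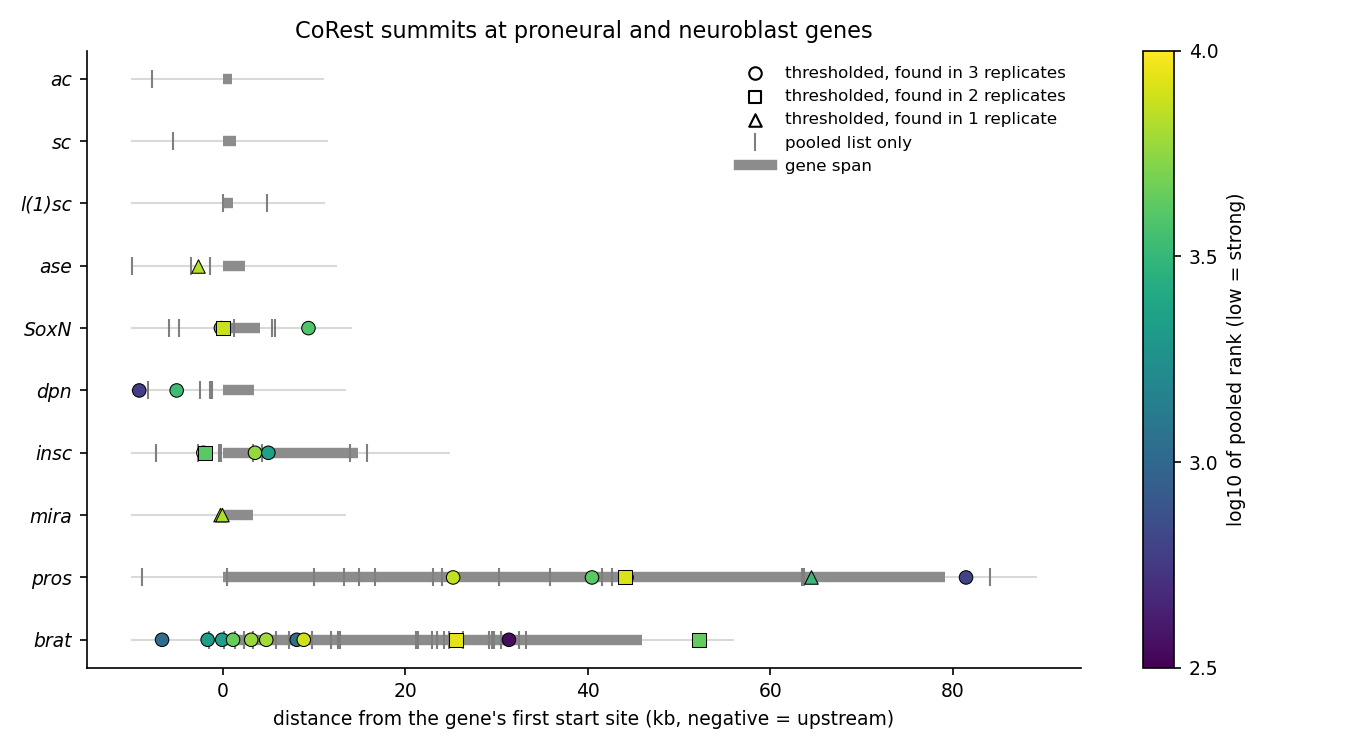
Position of each summit from the first start site of its gene in kb, with the gene span as a grey bar and the 10 kb flanks as a thin line. Symbols are thresholded summits, shaped by the number of replicates in which they were found and coloured by pooled rank, and grey ticks are peaks of the pooled list only. The brat line carries 11 symbols, and the lines of ac, sc and l(1)sc carry none.

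Replicate 1 stood apart from the others at these genes. Of the 30000 peaks of each full replicate list, 130 of replicate 1 lay in the 10 windows, against 78 of replicate 2 and 80 of replicate 3. The excess was not even. At pros replicate 1 had 33 peaks against 9 and 15, and at SoxN it had 13 against 6 and 5. At brat the counts were 40, 39 and 36, and at insc 15, 12 and 15. All 29 thresholded summits in the windows had a replicate 1 summit within 100 bp, against 97.2% of all thresholded summits. Of the 29, 21 had one in replicate 2 (all: 93.7%) and 24 in replicate 3 (all: 95.4%). Found in all 3 replicates were 20 of the 29 (69.0%), against 88.0% of all thresholded summits. The count depended on the matching distance, with 14 within 50 bp and 23 within 200 bp. Shares of all summits at those distances are not given here. At SoxN, insc and pros, 1 summit of an overlapping pair lacked a match in replicate 2, while its partner was found in all 3. Found in replicate 1 only were 4 (13.8%), against 1.07% of all. These 4 lay at mira (2, in overlapping peaks), ase and pros, and the part of replicate 1 in these values was not tested. The depth of the replicates is unknown, as the peak lists give no numbers of reads.

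**Figure D2:**
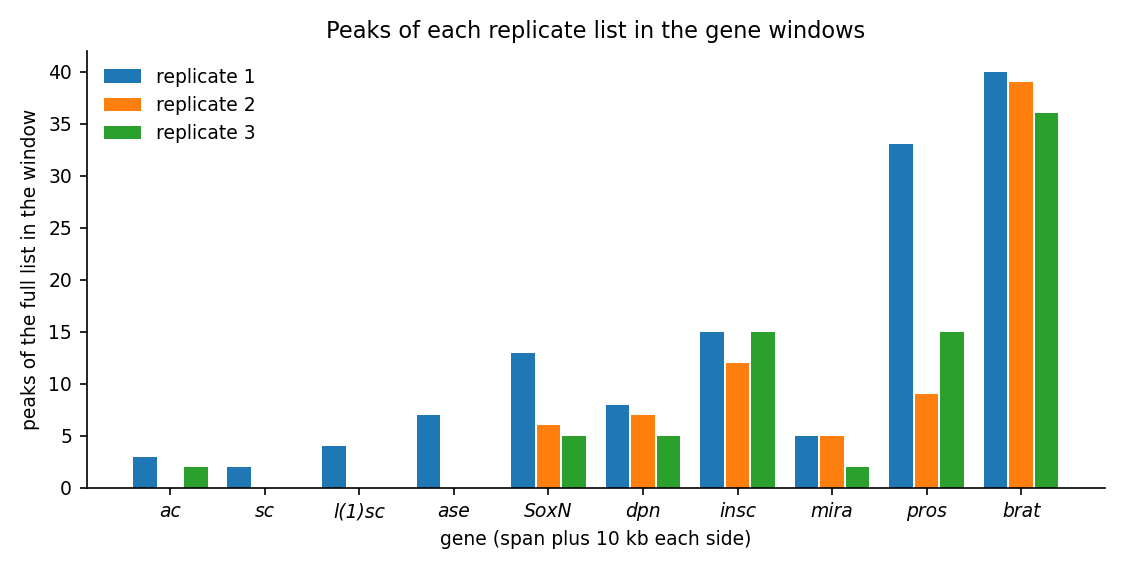
Bars give the number of peaks of each replicate's full list (30000 peaks) in the span plus 10 kb of each gene. Replicate 1 has the highest bar at every gene except insc and mira, where another replicate equals it. It exceeds the others most at ase, SoxN and pros, and the bars of brat lie between 36 and 40.

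The proneural genes of the achaete-scute complex on the X chromosome had no thresholded summit. The genes ac (FBgn0000022, X 370031 to 370947), sc (FBgn0004170, X 396060 to 397497) and l(1)sc (FBgn0002561, X 409721 to 410817) encode bHLH proneural factors. The nearest thresholded summit lay 31684 bp from the start of ac, 57713 bp from that of sc and 48295 bp from that of l(1)sc. Of all protein-coding genes, 93.6%, 98.1% and 97.0% had a summit closer to a start site than these 3, and the median over all genes was 2682 bp. In the pooled list all 10 genes had a peak in the window, as did 92.4% of all genes. For ac it was 1 peak at pooled rank 9555, 7818 bp upstream, with ranks 10104 in replicate 1 and 9067 in replicate 3 and none in replicate 2. For sc it was 1 peak at rank 16123, 5532 bp upstream, found in replicate 1 only. The 2 peaks at l(1)sc had ranks 19501 and 26002, the latter 13 bp from the start site in its 5′ untranslated region, and both were found in replicate 1 only. Replicate 2 had no peak of its full list in the windows of ac, sc, l(1)sc or ase, and replicate 3 had 2 in that of ac and none in the other 3. Each full list held exactly 30000 peaks, so this means no peak among those 30000.

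The fourth gene of the complex, ase (FBgn0000137, X 460747 to 463176), encodes a bHLH factor made in neural precursors themselves. It had 1 thresholded summit, 2731 bp upstream of its start site (X 457794 to 458237, pooled rank 6835), in an intron of CG32816, a gene that spans the whole complex. Its rank was 4087 in replicate 1, and replicates 2 and 3 had no summit within 100 bp. From the start of ac to the end of ase, over 93.1 kb, this was the only thresholded summit, against 0.704 per 10 kb on the whole X chromosome. The pooled list held 8 summits there, 0.859 per 10 kb against 2.40 on the X. The full lists held 17 peaks of replicate 1 there and 1 each of replicates 2 and 3, while their totals on the X were close, at 5531, 5399 and 5413. The 17 peaks had a median rank of 22415 and ran from 4087 to 29973. The stretch without a thresholded summit ran from 82 bp upstream of a start site of CG3777 (pooled rank 761) to the ase summit. It was 120 kb long, and 17 of the 1656 intervals between neighbouring X summits were at least as long, with a median of 5350 bp. This length depends on the ase summit, found in replicate 1 only. The next thresholded summit lay 24573 bp beyond the end of ase.

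SoxN (FBgn0029123, 2L 8825645 to 8829670) encodes a SoxB transcription factor of the early neuroectoderm and had 3 thresholded summits. The strongest lay 246 bp upstream of its start site (2L 8825177 to 8825620, pooled rank 3401) and had ranks 3384, 2043 and 4455 in replicates 1, 2 and 3 (3294 ± 1210, SD, n = 3). A second, 47 bp upstream at rank 7455, had ranks 5554 in replicate 1 and 12099 in replicate 3 and no match in replicate 2. The peaks of both overlapped, so they may be 1 region. The third lay 9359 bp downstream of the start site in intergenic sequence (2L 8834955 to 8835144, rank 3844) and was found in all 3 replicates (4285 ± 819, SD, n = 3). The closest start site of another gene, CG32986, lay 27772 bp from the third summit and farther from the others.

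The gene dpn (FBgn0010109, 2R 8228971 to 8232330) encodes a bHLH repressor of the Hairy/E(spl) class that marks neuroblasts. It had no thresholded summit within 5 kb of its start site. The pooled list had weaker peaks 1244, 2544 and 1491 bp upstream, at ranks 17502, 20122 and 26947. Those at ranks 17502 and 20122 were found in replicate 1 only, and that at rank 26947 in no replicate. The dpn window held 2 thresholded summits, and both lay nearer to the septin gene pnut. The stronger (2R 8241331 to 8241767, pooled rank 592) lay 9203 bp upstream of dpn and 3680 bp downstream of the pnut start site, in intergenic sequence, and had ranks 508, 628 and 690 (608.7 ± 92.5, SD, n = 3). The other lay 5097 bp upstream of dpn and 156 bp downstream of the pnut start site, in its 5′ untranslated region, at pooled rank 3399 (replicates 4158 ± 1480, SD, n = 3). The replicates thus placed the intergenic summit of this window high, and the dpn promoter had no thresholded summit.

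The gene insc (FBgn0011674, 2R 20821262 to 20836028) encodes an adaptor that links the apical polarity complex to spindle orientation, and it had 4 thresholded summits. The strongest lay in an intron (2R 20830936 to 20831175, pooled rank 2233), with ranks 2298, 2206 and 2216 in the replicates (2240 ± 50.5, SD, n = 3). It was also in an intron of sktl, a lipid kinase gene with 2 start sites, 1346 bp downstream of the inner one. A second intronic summit lay 116 bp upstream of that sktl start site at rank 5750 (replicates 6249 ± 1400, SD, n = 3). The other 2, at ranks 4159 and 7028, lay 1968 and 2170 bp upstream of the start site that insc and sktl share, and their peaks overlapped. The first of these had rank 2541 in replicate 1, no match in replicate 2 and rank 7274 in replicate 3. At the shared start site itself the pooled list had a peak 241 bp upstream, at rank 9652, outside the thresholded list, although all 3 replicates had it at ranks 7957, 26585 and 10107. Replicate 1 alone thus counted insc among the genes with a promoter summit.

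The gene mira (FBgn0021776, 3R 19931799 to 19935120) encodes the adaptor that carries Pros and Brat to the basal side of the dividing neuroblast. Both of its thresholded summits sat at the promoter, 79 bp upstream of a start site (pooled rank 6521) and 284 bp upstream (rank 6770), in overlapping peaks (3R 19934977 to 19935625 together). Both also lay in an intron of Hs6st. Their ranks in replicate 1 were 3955 and 4019. The nearest peak of the full list lay 5629 bp from a mira start site in replicate 2 and 7035 bp in replicate 3. The promoter count of mira therefore rested on replicate 1.

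The gene pros (FBgn0004595, 3R 11328480 to 11407627) encodes a homeodomain protein that ends self-renewal in the ganglion mother cell. Its window of 99148 bp held 6 thresholded summits, 0.605 per 10 kb, while the median over all genes was 0.886. The strongest was not at a pros promoter: it lay in the downstream flank, 84 bp upstream of the start site of mgr, a prefoldin subunit gene (3R 11409777 to 11410142, pooled rank 622). It had ranks 672, 612 and 615 (633 ± 33.8, SD, n = 3). A promoter pair lay 284 and 59 bp upstream of the most downstream of the 4 pros start sites, at ranks 8187 and 8210, within coding sequence of longer transcripts. The first had ranks 7685 and 8762 in replicates 1 and 3 and no match in replicate 2. The second had ranks 8632, 6247 and 11137 (8672 ± 2450, SD, n = 3). Of the 4930 genes with a promoter summit, 96.6% had a stronger one than pros.

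Inside pros there were 3 more summits. One lay 3854 bp upstream of the same start site at rank 4122, with ranks 2286, 8732 and 10983 in the replicates (7334 ± 4510, SD, n = 3), so replicate 1 placed it far higher than the others. One lay 572 bp upstream of a start site of the kinase genes KP78a and KP78b, which lie inside pros, at rank 7154 (7057 ± 2730, SD, n = 3). The last lay in the pros 3′ untranslated region at rank 3227, with rank 2417 in replicate 1 and no match in the others. Below the threshold, 2 intronic peaks at pooled ranks 9290 and 10229 were found in all 3 replicates.

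The gene brat (FBgn0010300, 2L 19133816 to 19179758) encodes an NHL-domain repressor of translation that acts as a determinant in the differentiating daughter cell. Its 65943 bp window held 11 thresholded summits (replicates 13, 13 and 9 among their 8721 strongest peaks, 11.7 ± 2.31, SD, n = 3). Of all protein-coding genes 99.3% had fewer, but the window is long. Per 10 kb it held 1.67, above the value of 79.2% of genes, and of the 1013 genes longer than 20 kb 72 had at least 11 summits and 317 at least the 6 of pros. The strongest lay in an intron, 702 bp upstream of the most downstream of its 3 start sites (2L 19164960 to 19165339, pooled rank 356). It had ranks 331, 275 and 484 (363.3 ± 108, SD, n = 3), the strongest of all 29 summits here in every replicate.

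At the first start site of brat a summit lay 109 bp upstream (2L 19133485 to 19133928, pooled rank 2161), with ranks 1825, 3593 and 2525 (2648 ± 890, SD, n = 3). Of the genes with a promoter summit, 34.8% had a stronger one, against 50.2% for SoxN and 83.6% for mira. This position also lay 224 bp upstream of a start site of Polr1D, a polymerase subunit gene that overlaps the start of brat, so the peak was not assigned to either. A run of 5 summits followed within the first 8843 bp of the gene, all in an intron of brat and found in all 3 replicates. All 5 lay nearer to a start site of Polr1D than to one of brat, and the first, at rank 4500, lay 331 bp downstream of it, in introns of both genes. The strongest of these lay 8073 bp downstream of the first start site (rank 1108; replicates 1153, 1491 and 1003). The summit at 3081 bp was the least steady of the run, with ranks 3503, 10444 and 27976. Another intronic summit, 827 bp downstream of the second start site, had rank 8560, near the end of the thresholded list.

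Besides the summit 331 bp from the Polr1D start site, 3 more in the brat window lay at promoters of other genes only. They were 139 bp upstream of l(2)37Cb (rank 1072; replicates 1199 ± 220, SD, n = 3), 163 bp upstream of AsnRS (rank 2126; replicates 2145 ± 202, SD, n = 3) and 28 bp upstream of pigeon (rank 4342, no match in replicate 3). The pooled list held 24 further peaks in the brat window, 9 of them found in all 3 replicates. The first below the threshold lay 1631 bp upstream of the most downstream start site at pooled rank 8810, with ranks 10096, 5787 and 8926.

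**Figure D3:**
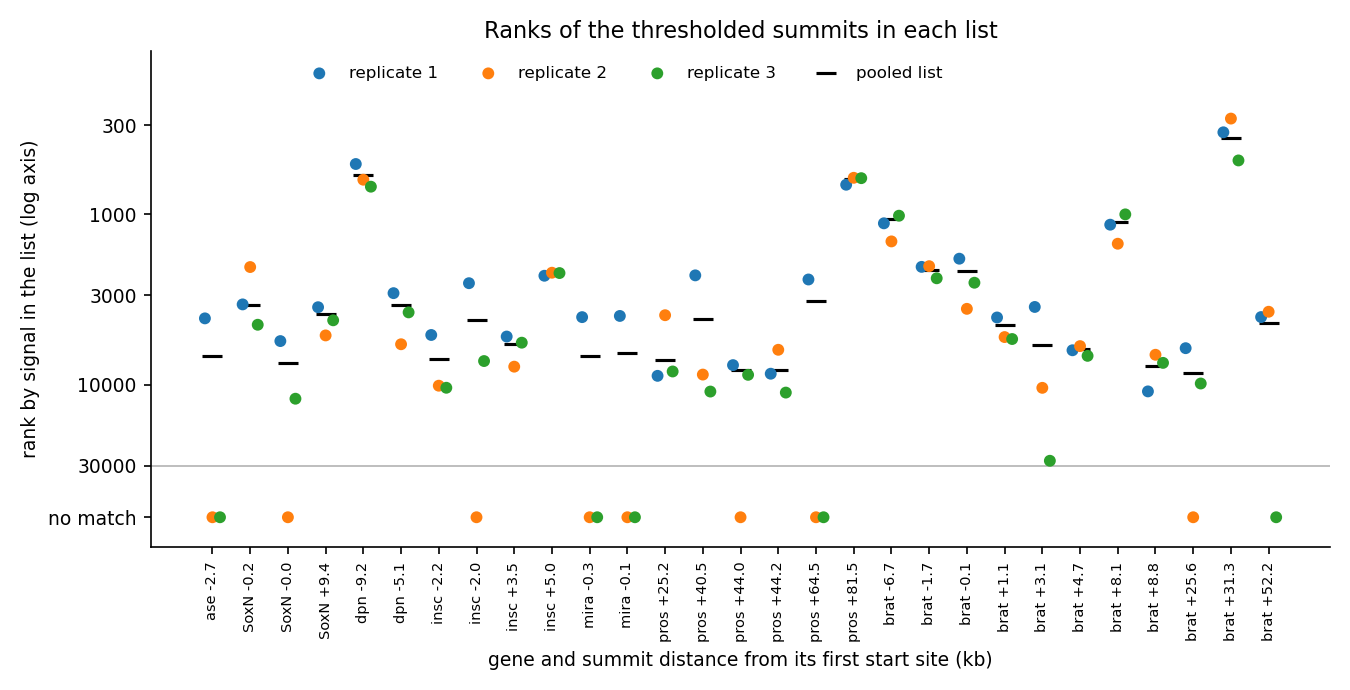
Rank of each of the 29 thresholded summits in the 3 replicate lists (dots) and in the pooled list (dashes) on a log axis with strong peaks at the top, ordered by gene and named by distance in kb from the first start site. Dots at the bottom mark lists with no summit within 100 bp. At mira, ase and 1 summit of pros there is a match in replicate 1 only, and at the strongest summits of brat, dpn and pros the dots lie close together.

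Across the 10 genes, the summits lay nearest to these genes and to their neighbours in about equal numbers. Of the 29 summits, 14 were nearest to a start site of the listed gene itself, counting the 2 at the start site that insc and sktl share, and 15 to another gene. Counted by nearest start site, 6 of the 10 genes had a summit of their own, against 36.0% of all genes, and dpn dropped out. Among these genes, ase and mira had theirs in replicate 1 only, and insc counted only through the start site shared with sktl. At promoters, 7 summits lay at the listed genes, 1 of them shared with Polr1D, and 7 at other genes only. The remaining 15 lay at neither. By position, 14 were inside the gene, 12 in the upstream and 3 in the downstream flank. The same splits of summits are not given here for the windows of other genes. They describe these 10 windows and do not set them apart. Of the peaks, 8 (27.6%) overlapped another thresholded peak, against 12.2% of all, which leaves 25 separate regions. The 8 were the pairs at SoxN, insc, mira and pros.

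Long genes held more summits than short ones throughout the genome, and the listed genes spanned all sizes. Among genes under 5 kb, 4 of the 7 listed here had a summit in the window, against 75.6% of all genes of that size, whose mean was 2.16 summits. The 1 listed gene of 5 to 20 kb, insc, had 4, where 88.1% of genes had any and the mean was 3.04. Both genes over 20 kb had summits, where 87.8% did and the mean was 4.40. The median pooled rank of the 29 summits was 4342 and that of all thresholded summits 4361. Of the 29, 3 were among the 1000 strongest pooled peaks, at brat, in the pnut side of the dpn window and at mgr in the pros window. In the whole thresholded list these were 1000 of 8721, a share close to that of the 29. In the whole pooled list 6 of the 10 genes had a promoter summit, l(1)sc and insc being the added ones, against 51.8% of all genes.

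**Figure D4:**
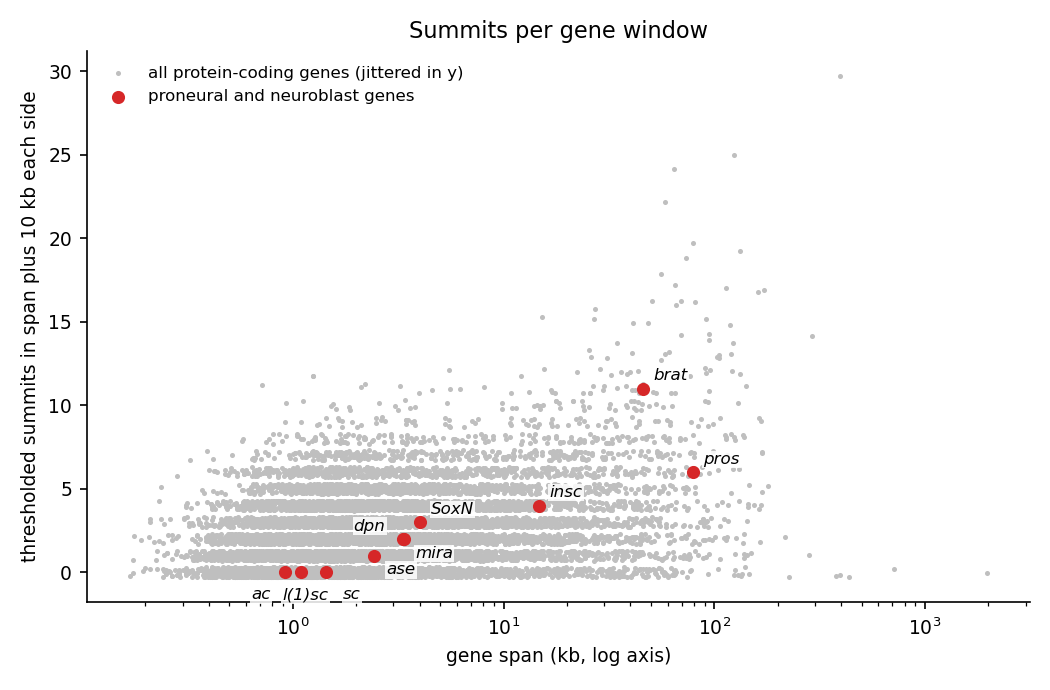
Thresholded summits in the span plus 10 kb of each protein-coding gene against gene span in kb on a log axis. Grey points are all 13945 genes, moved slightly in height to be visible, and red points the 10 listed genes. The genes ac, sc and l(1)sc sit at 0 and brat at 11.

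GC-rich summits were more frequent here than in the whole list. The sequence within 100 bp of the 29 summits had a median GC content of 34.8%, against 33.3% for all thresholded summits, and ran from 19.9% at the stronger dpn-window summit to 62.7% at pros. It was over 50% at 6 of the 29 (20.7%), against 4.0% of all summits, a limit chosen after the values were seen. These 6 were the promoter pairs of SoxN and pros, the summit near KP78a and the one in the pros 3′ untranslated region, so they came from 2 genes.

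Sequences bound by neural factors were at few of these summits and at few of all thresholded summits. Each motif was looked for within 100 bp of a summit, on either strand. The E-box CAGCTG, which proneural factors bind, was present at 2 of the 29, the summit 1968 bp upstream of insc and the one near KP78a, against 7.40% of all thresholded summits. The E-box CAGGTG was at 0 of 29 (all: 4.61%) and the Hairy/E(spl)/Dpn E-box CACGTG at 0 (all: 1.72%). The Sox sequence ACAATG was at 3, against 10.6%, and the Su(H) sequence GTGGGAA at 1, against 2.02%. The Zelda sequence CAGGTAG was at 0 (all: 0.757%). GAGAG was at 10 of 29 (34.5%), against 18.9%, and CGATA at 6 (20.7%), against 29.7%. The DREF site TATCGATA, which contains CGATA, was at 1, the promoter summit that brat shares with Polr1D, against 4.72%. No test was run on these counts, and a match is a description of sequence only.

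Among other genes that act with the listed ones, those of asymmetric division most often had a promoter summit. Of 15 genes of asymmetric division 13 had one (86.7%; replicates 12.7 ± 0.577 genes, SD, n = 3), beside 35.4% of all protein-coding genes. The strongest were at numb (pooled rank 179), an inhibitor of Notch segregated to 1 daughter cell, the mitotic kinase gene aurA (1055), the polarity gene par-6 (1068) and loco (2456), a regulator of G protein signalling, whose summit was not found in replicate 1. The 2 without one were l(2)gl and pon. Of 15 genes that control proneural activity and neuroectoderm fate 7 had one (46.7%; replicates 6 ± 1, SD, n = 3), led by the homeobox gene ro (1481), by da (2295), whose product is the bHLH partner of proneural factors, by the homeobox gene Dr (2322) and by the SoxB gene Sox21b (2510). The proneural genes amos and ato had none, and the window of each held 1 summit. Of 15 neuroblast transcription factor genes 6 had one (40.0%; replicates 5 ± 1, SD, n = 3), led by the zinc finger genes erm (3237) and nerfin-1 (6146), then grh (7581) and svp (7669), while cas and esg had none. These lists were made with earlier results of these data known, and no difference between them was tested. The lists and all genes were not matched for gene length or number of start sites.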

How the data were processed

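ChIP-seq peaks of 3 biological replicates were analysed as 1 group. Per the deposited file listings, peaks were called on dm6 for each replicate and for the pooled replicates, each against 1 control file, and a list thresholded on reproducibility (IDR) was derived from these. No source used here gives the peak caller, the threshold or the aligner. The deposited signal of each peak has no stated definition; ranks by it were taken within each list separately. No result used the −log10 q-value that the authors deposited. The summit is the deposited offset added to the peak start, and chromatin was sheared to 200 to 800 bp, per the labels.

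Genes came from Ensembl release 115 and bases from the RefSeq Release 6 assembly; chromosome ends and the last peaks were compared first. A summit was found in a replicate if that list had one within 100 bp; the nearest gave the rank. Counts were computed with pandas 2.3.3 and numpy 2.4.6 and checked on simulated peaks. No test was run. The members, gene lists and motifs were chosen with earlier results of these data known. All 10 genes were named; of the 3 lists of other genes, the 4 strongest and the first 2 in the alphabet without a promoter summit were. Alternatives varied the windows, the list, the matching distance and the replicates.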

Additional observations from a re-analysis of the deposited data

How the results depend on the processing

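Over 39 alternatives of the 4 counts, 31 stayed within 1.5 times the reported value. This limit is wide: 5 genes against 7 with any summit, and 20 summits against 29, fell within it. Leaving out a replicate can only keep or raise the count of summits found in all the others, so those alternatives could not lower it. With the 4360 strongest peaks only, 2 genes (SoxN and brat) kept a promoter summit and the windows held 15 summits. With the 17442 strongest pooled peaks the windows held 60 summits. Without flanks, 3 genes (insc, pros and brat) had a summit, with 14 summits, 11 of them found in all 3 replicates. Chosen after seeing the data, counting only summits nearest to a start site of the listed gene left 14 summits, 7 of them found in all 3 replicates. Without 1 replicate, keeping peaks found in both others, 3 genes had a promoter summit and 5 any summit, whichever was left out: mira and ase dropped out each time, since only replicate 1 had their summits. The windows then held 20 to 24 summits. No paired analysis was possible because there was 1 group. Depth is unknown, so a missing peak does not show missing binding.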
